A study of Mus musculus with 6 samples.

Results

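The 10 genes described here code for enzymes that make, recycle or spend glutathione, or that clear superoxide and hydrogen peroxide by other routes: Gpx1, Gpx3, Gpx4, Gclc, Gclm, Gsr, Prdx2, Cat, Sod1 and Sod2. They were chosen by symbol, and a row of the deposited array table stood for a gene when the platform annotation gave that row its symbol and no other. All 10 had exactly 1 such row, so that all 10 were among the 21506 genes tested. Expression was measured in left ventricle of 3 sickle and 3 control mice, male and 10 to 14 weeks old per the labels, with 1 Affymetrix array for each mouse. The sickle mice were homozygous for Hbbtm2(HBG1,HBB*)Tow, in which the mouse beta-globin locus is replaced by human gamma-globin and sickle beta-globin genes. The controls were homozygous for Hbbtm3(HBG1,HBB)Tow, with a human beta-globin that does not sickle. Both lines carried Hbatm1(HBA)Tow, a human alpha-globin replacement, on the mixed background B6;129, so that the controls were also humanised at the globin loci. The globin change acts in red cells, and the RNA came from whole tissue. The sources used here do not say whether the mice were littermates, and p-values set the difference between the groups against the spread between these arrays.

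Superoxide, a by-product of respiration and of haemoglobin oxidation, is turned into hydrogen peroxide by superoxide dismutases. Sod1, which carries copper and zinc, works in the cytosol, and Sod2, which carries manganese, works in mitochondria. Hydrogen peroxide is then removed by catalase (Cat) in peroxisomes and in red cells, by peroxiredoxins such as Prdx2 with electrons from thioredoxin, and by glutathione peroxidases. Gpx1 is the cytosolic and mitochondrial glutathione peroxidase, Gpx3 is secreted, and Gpx4 reduces lipid peroxides in membranes; all are selenoproteins. Glutathione is made in a pathway whose first and rate-limiting step is catalysed by glutamate-cysteine ligase, with Gclc as its catalytic and Gclm as its modifier subunit, and oxidised glutathione is reduced again by Gsr with NADPH. Mature red cells depend on several of these enzymes, and Gpx1, Prdx2, Cat and Sod1 are known to be abundant in such cells. The genes of glutathione synthesis are known targets of the transcription factor NRF2, which binds antioxidant response elements.

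The sequences before the transcription starts of Gpx1, Gclm and Sod1 are shown because Gpx1 and Gclm had the 2 largest differences between the groups, while Sod1 lay on the other side. RefSeq start sites on GRCm38.p6 gave 11 windows of 250 bases for 8 of the members, matched by symbol (not Gclc and Gsr). The windows were searched on both strands for the core of the antioxidant response element, TGACNNNGC, and for the GATA factor motif AGATAA. Capitals mark the antioxidant response element core, here read on the opposite strand. The window of Gpx1 is chr9:108338830-108339079 (+), that of Gclm is chr3:122245307-122245556 (+) and that of Sod1 is chr16:90220512-90220761 (+).
Gpx1: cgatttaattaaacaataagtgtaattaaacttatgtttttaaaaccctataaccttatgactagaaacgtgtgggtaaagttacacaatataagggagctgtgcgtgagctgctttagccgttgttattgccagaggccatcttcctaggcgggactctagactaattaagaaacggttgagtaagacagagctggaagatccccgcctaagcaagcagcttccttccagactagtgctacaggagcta
Gclm: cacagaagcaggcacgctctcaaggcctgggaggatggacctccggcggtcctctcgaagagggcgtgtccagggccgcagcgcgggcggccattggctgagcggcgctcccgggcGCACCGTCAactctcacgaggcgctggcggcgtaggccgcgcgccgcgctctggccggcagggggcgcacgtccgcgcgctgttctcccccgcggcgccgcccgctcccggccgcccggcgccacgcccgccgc
Sod1: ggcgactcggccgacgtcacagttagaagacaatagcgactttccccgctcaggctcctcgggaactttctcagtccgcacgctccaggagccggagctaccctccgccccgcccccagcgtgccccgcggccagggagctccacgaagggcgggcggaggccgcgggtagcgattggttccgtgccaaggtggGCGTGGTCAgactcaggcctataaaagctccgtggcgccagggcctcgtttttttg
The core was found once each in Gclm, at 134 to 126 bases before the start, and in Sod1, at 56 to 48 bases before it, which is 2 of the 11 windows. Of all 32851 RefSeq windows of this length 10.2% held it. The GATA motif in the form AGATAA was in 0 of the 11 windows and in 9.99% of all windows. Related forms were not searched, among them TGATAA, which stands before Gpx4. The windows also differed in base composition, with 42.0% G and C in Gpx1, 78.4% in Gclm and 66.4% in Sod1, against a median of 52.4% over all windows. A match says only that these letters stand there.

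Some arrays differed in ways that touch the values below. Red-cell markers were higher by their median in every sickle array. After adjustment over all genes (limma) 9 of 19 measured markers rose, where 0.181% of all genes passed in either direction. The list was chosen with earlier results of these data known, so this count describes it and no more. Of the 19, 2 were below control, Sptb (-0.10) and Epor (-0.15). Klf1 (0.18) and Tfrc (0.25) were among those that overlapped. The log2 of the markers' summed level ran from 11.60 to 11.87 in control and from 12.76 to 13.23 in sickle. Sickle replicate 3 stood apart, with 340 genes over 2-fold above the mean of the other sickle arrays; the same count was 13 to 25 for the other 5 arrays. Fibroblast and matrix markers had a summed log2 level of 14.57 in that array and 12.94 to 13.14 in the others, and macrophage and monocyte markers 12.51 against 11.10 to 11.43. Control replicate 3 carried the atrial genes Sln and Myl7 at 8.08 and 7.75, against at most 3.36 and 4.78 elsewhere. Of the other atrial markers, Myl4 was also highest there (5.93), but Bmp10 (5.01) was below control replicate 2 (5.33). Nppa, at 12.74 there, was below all sickle arrays (12.97 to 13.66). Cardiomyocyte markers were bright on all arrays, with means from 9.09 to 13.55. Markers here are RMA values, which have no true 0, and fewer cells of a type cannot be told apart from less RNA per cell in whole tissue.

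The comparison asked how expression in the ventricle of sickle mice differed from that of mice with non-sickling human haemoglobin. Of the 10 members, 0 passed an adjusted p of 0.05 in limma over all genes, where 39 of 21506 genes (0.181%) did. An unadjusted p under 0.05 was reached by 3 members, Gpx1, Gclm and Gclc, against 8.69% of all genes. Values of the 3 sickle arrays lay wholly above the 3 control arrays in 3 members (the same genes; 7.61% of all genes) and wholly below in 1 member, Sod1 (8.36% of all genes), so that 4 of 10 did not overlap against 16.0% of all genes. The members' median difference was 0.02, against -0.01 over all genes, with 5 members above and 5 below control. The members were chosen with earlier results of these data known, so these counts describe them and no more.

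**Figure D1:**
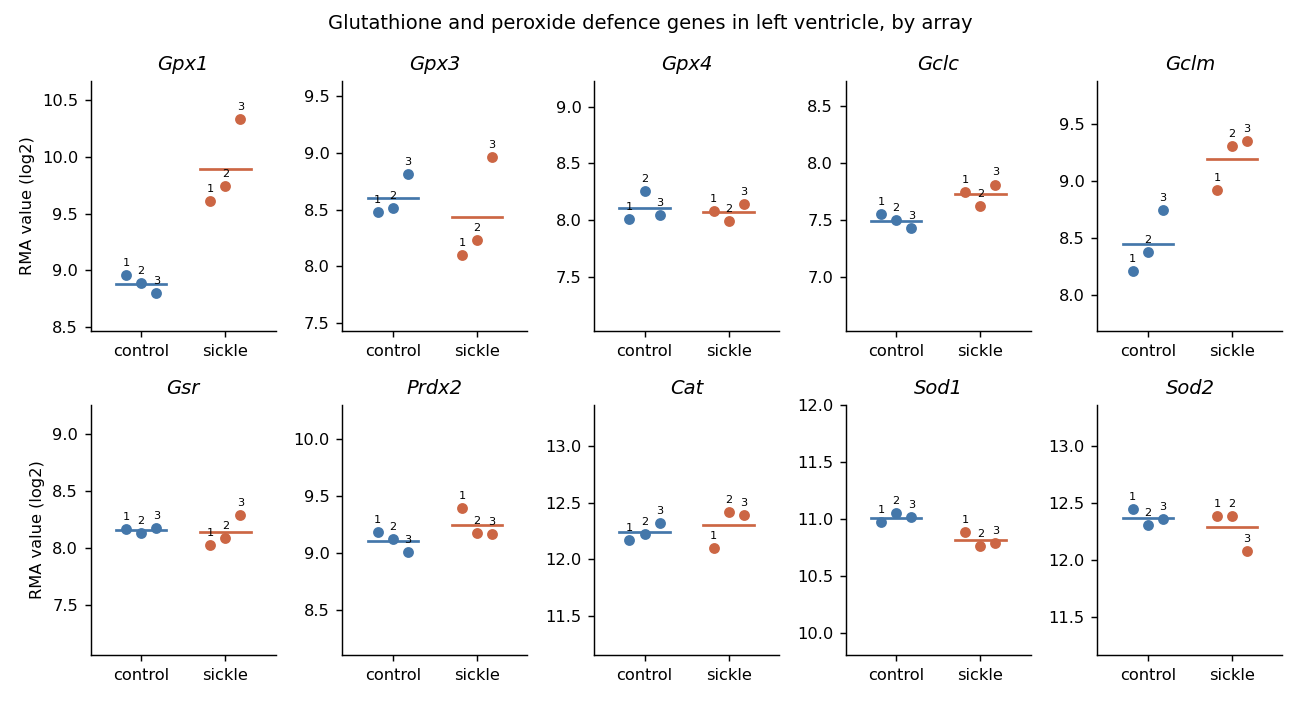
RMA values (log2) of the 10 members in each array, numbered by replicate, with a bar at each group's mean; every panel spans the same number of log2 units. Gpx1 and Gclm are the members with the clearest separation of sickle from control, Sod1 is slightly lower in sickle, and Gpx3 is spread widely within the sickle group.

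Gpx1 was the member with the largest difference. Its log2 values were 8.96, 8.89 and 8.80 in control replicates 1, 2 and 3 and 9.61, 9.74 and 10.33 in sickle replicates 1, 2 and 3. The lowest sickle array lay 0.65 above the highest control array, and the control arrays were close together while sickle replicate 3 was the highest. The difference was 1.01 ± 0.18 (SE; 95% interval 0.58 to 1.44; n = 3 per group), or 2.01-fold, with a limma adjusted p of 0.183, at rank 84 by p of all genes. The unadjusted p was 0.000722 in limma, and the exact two-sided permutation p was 0.1, the smallest that 3 against 3 arrays allow. Leaving out sickle replicate 3 lowered the difference to 0.79 and its error to 0.10 (limma adjusted p = 0.0791).

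The secreted peroxidase Gpx3 did not follow Gpx1. It had 8.48, 8.51 and 8.81 in control and 8.10, 8.23 and 8.96 in sickle. Sickle replicates 1 and 2 lay below every control array and replicate 3 above every control array, so the groups overlapped (difference -0.17 ± 0.23, limma adjusted p = 0.843). Leaving out sickle replicate 3 gave a difference of -0.44 ± 0.13 (limma adjusted p = 0.412). Gpx4, the membrane lipid peroxidase, had 8.01, 8.26 and 8.05 in control and 8.08, 7.99 and 8.14 in sickle. These values overlapped, and the 95% interval of the difference, -0.28 to 0.21, bounds what 3 arrays per group could show.

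The change of Gpx1 was set against that of its relatives within each array, after subtracting each gene's control mean. Gpx1 exceeded Gpx3 by 1.22, 1.23 and 1.09 in the sickle arrays, against -0.29 to 0.20 in the control arrays. The gap was 1.18, with an SD of 0.08 over the 3 sickle arrays and of 0.26 over the 3 control arrays. Gpx1 exceeded Gpx4 by 0.75, 0.96 and 1.41, against -0.14 to 0.18. Both contrasts had an exact two-sided permutation p of 0.1, the smallest possible here, and 0.25 after Benjamini-Hochberg adjustment over the 5 pairs of members compared, which were chosen with the values known. Gpx1 therefore lay above both relatives in 3 of 3 sickle arrays, although the design cannot bring such a test under 0.05. Of the 5 other glutathione peroxidase genes measured, 0 passed the adjustment in limma and 0 at an unadjusted p under 0.05. The intestinal type Gpx2, which had the smallest p of them, had 4.26, 3.72 and 3.40 in control and 3.52, 3.31 and 3.11 in sickle (-0.48 ± 0.22). Its difference was -0.25 without control replicate 1 and -0.68 without control replicate 3. Gpx7, of the endoplasmic reticulum, had 6.83, 6.87 and 7.05 in control and 6.88, 7.00 and 7.62 in sickle (0.25 ± 0.19, and 0.02 without sickle replicate 3).

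Both subunits of glutamate-cysteine ligase were higher in sickle without overlap, the modifier by more than the catalytic subunit. Gclm had 8.21, 8.38 and 8.75 in control and 8.92, 9.31 and 9.35 in sickle. Control replicate 3, the array with high Sln and Myl7, was the highest control and came within 0.17 of the lowest sickle array. The difference was 0.74 ± 0.17 (SE; 95% interval 0.34 to 1.15), or 1.67-fold, with a limma adjusted p of 0.337, at rank 193 by p. It was 0.66 ± 0.19 without sickle replicate 3. Over the 6 fits with 1 array left out it ran from 0.62 to 0.89.

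Gclc had 7.55, 7.50 and 7.43 in control and 7.74, 7.62 and 7.81 in sickle. The groups were separated by only 0.06, and the difference was 0.23 ± 0.10 (1.17-fold, limma adjusted p = 0.573). Relative to its control mean, Gclm exceeded Gclc by 0.23, 0.73 and 0.59 in the sickle arrays and by -0.30 to 0.37 in the control arrays. These ranges overlapped (exact two-sided permutation p = 0.2, adjusted p = 0.333 over the 5 pairs), so the larger value of Gclm was not separable from that of Gclc. Gpx1 and Gclm were not separable either, with a gap of 0.27 (exact permutation p = 0.5). Its SD was 0.28 over the sickle arrays and 0.36 over the control arrays.

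Gsr, which returns oxidised glutathione to its reduced form, had 8.17, 8.13 and 8.18 in control and 8.03, 8.09 and 8.29 in sickle. Sickle arrays lay on both sides of control, with a difference of -0.02 ± 0.10 and a 95% interval of -0.26 to 0.21. The other genes of glutathione supply and recycling numbered 15 measured, of which 0 passed the adjustment in limma. An unadjusted limma p under 0.05 was reached by 2 of them (8.69% of all genes), both lower in sickle. Glrx, the cytosolic glutaredoxin that takes glutathione off protein thiols, had 9.66, 9.35 and 9.38 in control and 9.31, 9.03 and 8.88 in sickle (-0.39 ± 0.14, limma adjusted p = 0.534). Ggct, a cyclotransferase of the gamma-glutamyl cycle, had 6.45, 6.54 and 6.27 in control and 6.18, 6.22 and 5.96 in sickle (-0.30 ± 0.12). In both genes each sickle array was below each control array.

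**Figure D2:**
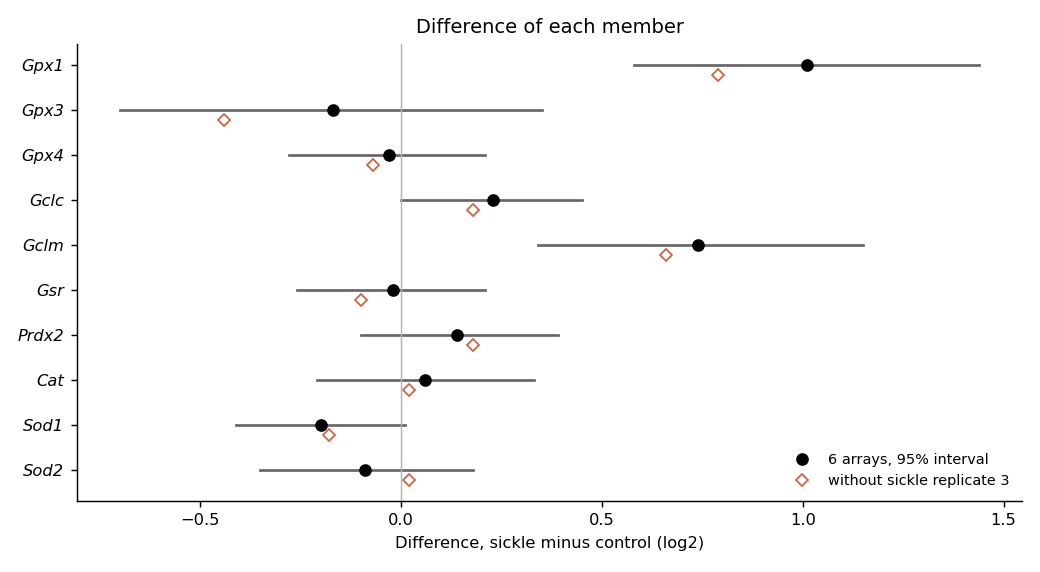
Difference of each member, sickle minus control (log2), with the limma 95% interval over 6 arrays (filled circles) and the value without sickle replicate 3 (open diamonds). Gpx1 and Gclm lie clear of 0 at 1.01 and 0.74, the interval of Gclc ends close to 0, and the other 7 intervals span 0; no member passed the adjustment over all genes.

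Of the enzymes that remove hydrogen peroxide without glutathione, neither member separated the groups. Prdx2, the cytosolic peroxiredoxin, had 9.19, 9.12 and 9.01 in control and 9.40, 9.18 and 9.17 in sickle. Sickle replicate 1 was above all control arrays and the other two lay at the upper end of the control range (difference 0.14 ± 0.11, limma adjusted p = 0.711). Cat had 12.17, 12.22 and 12.32 in control and 12.10, 12.42 and 12.39 in sickle. Sickle replicate 1 was the lowest of the 6 arrays, and the 95% interval of the difference was -0.21 to 0.33.

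Among the superoxide dismutases, Sod1 was the member with the opposite separation. It had 10.97, 11.05 and 11.02 in control and 10.89, 10.76 and 10.79 in sickle. The highest sickle array lay 0.07 below the lowest control array, and the difference was -0.20 ± 0.09, or 0.872-fold (95% interval -0.41 to 0.01; limma adjusted p = 0.588). The mitochondrial Sod2 had 12.45, 12.31 and 12.36 in control and 12.39, 12.39 and 12.08 in sickle. Replicate 3 alone was below control, and without it the difference turned from -0.09 to 0.02. Ccs, the chaperone that loads copper into Sod1, had 6.55, 6.65 and 6.64 in control and 6.82, 6.76 and 6.90 in sickle (0.21 ± 0.09, limma adjusted p = 0.573), above control in 3 of 3 sickle arrays. Sod3, the extracellular enzyme, had 7.59, 8.05 and 7.74 in control and 7.69, 7.55 and 8.41 in sickle (0.09 ± 0.23). Without sickle replicate 3 the difference of Sod3 was -0.17.

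Of the 4 members abundant in red cells, 1 was above control without overlap (Gpx1), 1 was below (Sod1) and 2 overlapped (Prdx2 and Cat). Over all genes 7.61% were above and 8.36% below without overlap. Red-cell transcripts were higher in the same sickle arrays. Slc4a1, the red-cell anion exchanger, rose by 3.31 ± 0.30 (limma adjusted p = 0.0109), with 9.30, 10.00 and 10.55 in sickle against 7.00, 6.44 and 6.47 in control. Its call was lost in 5 of the 14 alternative fits, without control replicate 2, control replicate 3 or sickle replicate 2 among them (limma adjusted p = 0.0906, 0.102 and 0.0507). Bpgm, the red-cell enzyme that makes 2,3-bisphosphoglycerate, rose by 1.71 ± 0.12 (limma adjusted p = 0.00491; 0.055 without control replicate 3). Sickle replicates 1, 2 and 3 had medians of 0.89, 1.36 and 1.0 over the 19 red-cell markers, relative to control. Over the same arrays Gpx1 was 0.72, 0.85 and 1.45 above its control mean, Prdx2 0.30, 0.07 and 0.06, Cat -0.14, 0.18 and 0.15, and Sod1 -0.12, -0.25 and -0.22. Slc4a1, at 2.66, 3.36 and 3.91 above its control mean, had the same order of sickle arrays as Gpx1, while the median of the list and Bpgm (1.53, 1.89 and 1.71) were highest in replicate 2. Red-cell transcripts were higher in the same arrays as Gpx1 and Gclm, and their part in either difference was not tested.

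Macrophage and matrix markers were, like Gpx1, highest in sickle replicate 3, and their part in the value of that array was not tested. Relative to control, the 10 macrophage and monocyte markers had medians of -0.01, 0.13 and 1.33 in sickle replicates 1, 2 and 3, and the 10 fibroblast and matrix markers had 0.03, 0.15 and 1.71. In replicates 1 and 2, in which these medians were between -0.01 and 0.15, Gpx1 was 0.72 and 0.85 above its control mean. Single genes of white blood cells were above their control means in replicates 1 and 2, among them Ptprc (0.89 and 0.84), Csf1r (0.30 and 0.33) and Lyz2 (0.23 and 0.41). Others were below their control means in both, among them Cd14 (-1.02 and -0.24), Fcgr1 (-0.31 and -0.18) and Itgam (-0.23 and -0.09). Gclm was 0.47, 0.86 and 0.90 above its own, with replicates 2 and 3 alike. Gpx3 was -0.50, -0.37 and 0.36, above control in replicate 3 alone. Neutrophil markers had medians between 0.06 and 0.11 in the sickle arrays, adipocyte markers between -0.22 and 0.13, and cardiomyocyte markers between -0.13 and 0.02. In 9 of the 10 macrophage and monocyte markers and 10 of the 10 fibroblast and matrix markers the sickle mean was above control. However, 0 passed the adjustment in limma, and 2 and 3 had an unadjusted p under 0.05 (8.69% of all genes).

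**Figure D3:**
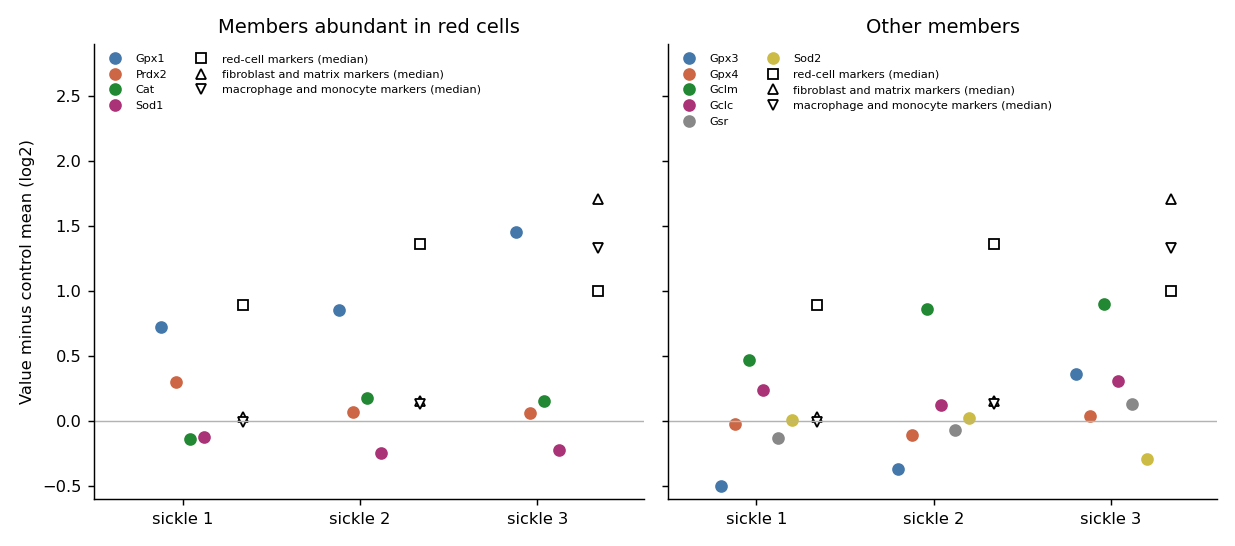
Each sickle array's value minus the control mean (log2) for the members abundant in red cells (left) and the other members (right), with the medians of 3 marker lists as open symbols. Red-cell markers are 0.89 to 1.36 above control in all 3 arrays and matrix and macrophage markers are high in sickle 3; Gpx1 and Gclm are above 0 in all 3 arrays, and Prdx2, Cat and Sod1 stay within 0.30 of control.

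The genes whose profiles over the 6 arrays were closest to those of Gpx1 and Gclm were found by the root mean square difference between log2 profiles, each centred on its control mean, among 9794 genes with a mean of at least 6. For Gpx1 these were Dennd4a (0.111), Ptprc (0.133), Mir692-1 (0.137), Selplg (0.155) and Itih5 (0.156). Ptprc codes for CD45, the surface phosphatase of white blood cells, and Selplg for the P-selectin ligand of white blood cells. Ptprc had 6.63, 6.66 and 6.72 in control and 7.56, 7.51 and 8.33 in sickle (1.13 ± 0.21, limma adjusted p = 0.191). Without sickle replicate 3 it passed the adjustment (difference 0.87, limma adjusted p = 0.0378). Its limma adjusted p reached 0.633 with another array left out, and ran from 0.0738 to 0.528 over the alternatives that kept all arrays. For Gclm they were Ackr2 (0.0721), Hsp90aa1 (0.15), Peg3 (0.153), Xpo7 (0.161) and Kctd12 (0.168). Ackr2 codes for a scavenging chemokine receptor and Hsp90aa1 for an inducible chaperone. Hsp90aa1 had 8.42, 8.78 and 9.04 in control and 9.33, 9.77 and 9.37 in sickle, so that, as for Gclm, control replicate 3 was the highest control. These likenesses rest on 6 arrays and describe the profiles only.

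Around the members, 9 lists of pathway genes held 115 further genes, of which 101 were measured. In limma 0 of these 101 passed the adjustment and 12 (11.9%) had an unadjusted p under 0.05, against 0.181% and 8.69% of all genes. Sickle lay above control without overlap in 8 (7.92%) and below in 14 (13.9%), against 7.61% and 8.36% of all genes. Their median difference was 0.00. The glutathione S-transferases, which attach glutathione to other molecules, were below control in 14 of 18, with a median of -0.10, where 51.6% of all genes were below control. Array by array, their median stood at -0.03 in sickle replicate 1, at -0.09 in replicate 2 and at -0.18 in replicate 3, and Gstk1 (-0.02, -0.19 and -0.88), Gstm4 (-0.04, -0.20 and -0.78) and Gstm7 (0.06, -0.08 and -0.75) were low mainly in replicate 3. Mgst1, a membrane-bound member of that group, had 7.69, 7.95 and 8.02 in control and 7.29, 7.32 and 7.36 in sickle. Each sickle array was below each control array, and the difference was -0.56 ± 0.11 (0.677-fold, limma adjusted p = 0.235). Its relative Mgst3 had 9.54, 9.53 and 9.43 against 9.36, 9.29 and 9.06 (-0.26 ± 0.11).

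Of the 12 further peroxiredoxin and thioredoxin genes measured, 7 were above and 5 below control, with a median of 0.04. Those below were Prdx3 (-0.15), Prdx4 (-0.05), Txn1 (-0.16), Txn2 (-0.17) and Txnrd1 (-0.12). Those above were Sesn1, Sesn2, Sesn3, Txnip, Srxn1, Txnrd3 and, at 0.00, Txnrd2. Prdx1, Prdx5 and Prdx6 were listed but not measured. Sesn3, a sestrin, had 7.39, 7.57 and 7.63 in control and 7.91, 7.76 and 7.98 in sickle (0.35 ± 0.11, limma adjusted p = 0.457). Txnip, which binds and inhibits thioredoxin, had 11.27, 11.54 and 11.08 in control and 11.51, 11.83 and 12.02 in sickle (0.49 ± 0.17), with sickle replicate 1 inside the control range. The 9 genes of NADPH supply had a median of -0.08. Malic enzyme Me1 had 10.10, 10.17 and 10.15 in control and 9.72, 10.00 and 9.69 in sickle (-0.34 ± 0.11). Taldo1, of the pentose phosphate pathway, went the other way, with 7.42, 7.41 and 7.28 in control and 7.68, 7.52 and 7.67 in sickle (0.25 ± 0.10). The limma adjusted p was 0.492 for Me1 and 0.551 for Taldo1.

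Of the 14 genes of the NRF2 system other than Gclc and Gclm, 10 were above control and 4 below, with a median of 0.10. Of all genes, 51.6% were below control. The list mixes regulators with targets, so its count has no single direction of meaning. Array by array, the list's median stood at 0.03 in sickle replicate 1, at -0.01 in replicate 2 and at 0.26 in replicate 3. Hmox1, heme oxygenase, had 5.94, 6.23 and 6.72 in control and 6.78, 6.89 and 7.77 in sickle (0.85 ± 0.29, limma adjusted p = 0.513). As in Gclm, control replicate 3 was the highest control array, and without sickle replicate 3 the difference was 0.54. Maff, a small MAF protein that pairs with NRF2, had 6.21, 6.03 and 6.43 in control and 6.40, 6.43 and 6.95 in sickle (0.37 ± 0.17), so that the groups overlapped. The other listed targets differed little: Osgin1 by 0.11, Sqstm1 by 0.09, Srxn1 by 0.08, Slc7a11 by 0.01, Nqo1 by -0.04 and Txnrd1 by -0.12.

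The 20 genes of selenoprotein synthesis and other selenoproteins had a median of 0.00, 9 above and 11 below control, and 0 had an unadjusted p under 0.05 in limma. Msrb1, the selenium-containing methionine sulfoxide reductase, had 9.57, 9.55 and 9.41 in control and 9.30, 9.22 and 9.39 in sickle (-0.21 ± 0.10). Pstk, a kinase of selenocysteine synthesis, had 8.03, 7.70 and 7.72 in control and 7.53, 7.72 and 7.28 in sickle (-0.30 ± 0.15). Of the 9 genes for NADPH oxidases and other peroxide sources, 7 were above control, with a median of 0.18, and in sickle replicate 3 the list's median was 0.43 above control, against 0.04 and -0.10 in replicates 1 and 2. Maob, a mitochondrial monoamine oxidase that releases hydrogen peroxide, was among the 2 below control. It had 9.36, 9.31 and 9.15 in control and 8.87, 8.87 and 8.62 in sickle (-0.49 ± 0.11, limma adjusted p = 0.325), all sickle arrays below all control arrays. Xdh, the other, had 9.25, 9.44 and 9.08 in control and 8.59, 8.52 and 9.14 in sickle (-0.51 ± 0.18), with replicate 3 inside the control range.

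**Figure D4:**
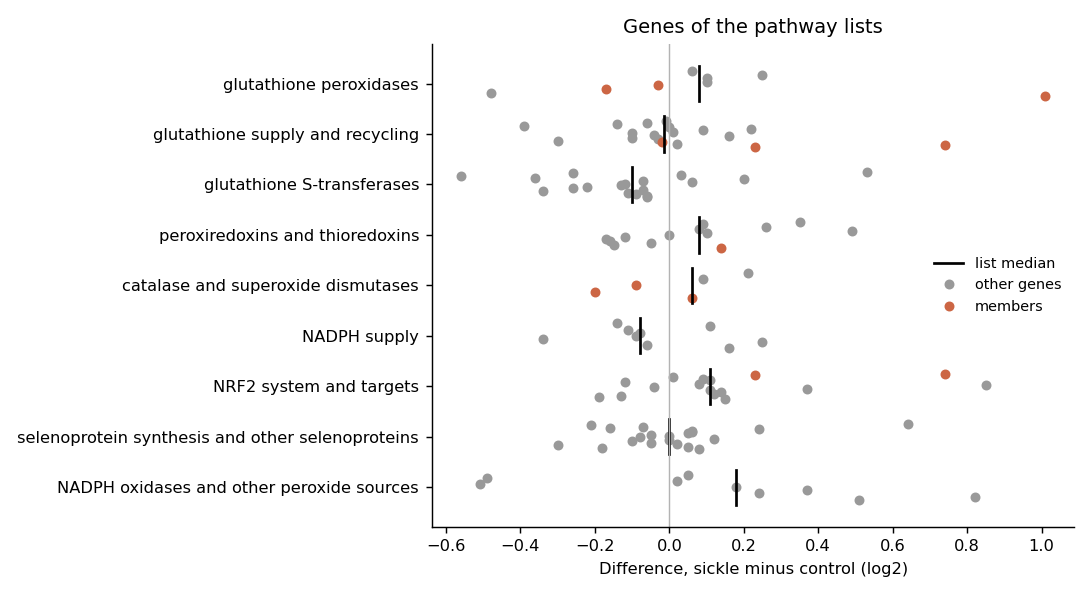
Differences, sickle minus control (log2), of the measured genes of the 9 pathway lists, members in orange and other genes in grey, with each list's median as a bar; genes in 2 lists appear in both. Gpx1 (1.01), Hmox1 (0.85), Cybb (0.82) and Gclm (0.74) lie farthest to the right, Mgst1 (-0.56) farthest to the left, and list medians stay between -0.10 and 0.18.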

How the data were processed

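Total RNA of left ventricle from 6 mice was hybridised to 6 arrays. The authors deposited log2 values after RMA (background correction, quantile normalisation, probe summary), per the submitters' processing notes, which give no version. RMA makes the array distributions alike, so a shift shared by all genes would not be seen. Array medians were 5.500 to 5.543. Of 25293 rows, 22030 had exactly 1 symbol in the platform annotation, 685 several and 2578 none. Each of 21506 genes was represented by its brightest row (by mean value). Groups and replicate numbers came from the sample titles.

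Differences are sickle minus control from limma 3.58.1 (R 4.3.3), lmFit and eBayes with group as the only term (4 residual, 3.61 prior degrees of freedom), two-sided, with Benjamini-Hochberg adjustment over all genes at 0.05. Single values were also tested by exact permutation over the 6 arrays. The procedure was tested on simulated data with independent noise for each gene and array. That setting lacks shifts shared by many genes, such as those of sickle replicate 3. Members, gene lists and pairs were chosen with earlier results of these data known. Named beside the members were, per pathway list, genes past the adjustment or otherwise the 2 with the smallest p, Slc4a1 and Bpgm, and the 5 genes most like Gpx1 and Gclm. Other genes named were chosen after their values were seen. Arrays give no read depth, and their number limits the precision. Figures were drawn with matplotlib 3.10.9.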

Additional observations from a re-analysis of the deposited data

How the results depend on the processing

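Across 14 alternatives the number of members called stayed at 0. The count of 39 genes called over all genes was 31 to 50 with median centring, a second quantile normalisation, array weights, an intensity trend in the variance, no dim genes (mean under 5) or the mean over a gene's rows. It was 12 with the replicate number as a block (replicate block), 0 with no shared variance (1740 genes at an unadjusted p under 0.05) and 4 to 36 with each array left out in turn, 4 without control replicate 3, 5 without control replicate 2, 13 without control replicate 1 and 21 without sickle replicate 2 or 3. Whether the replicate numbers pair the mice is not known. Deviations of same-numbered arrays from their group means correlated at 0.11, -0.05 and 0.05. Those of control and sickle arrays with different numbers correlated at -0.12 to 0.07. With 3 arrays per group these values are too few to decide whether the mice were paired.

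Direction was kept in all alternatives run by 7 of 10 members and by 36 of 38 other genes run (Gpx2 had no value without dim genes). Of these 7 members, Gpx3 (-0.17) came to -0.01 without sickle replicate 1. Cat (0.06) came to 0.00 without sickle replicate 2, so that its sign held only beyond 2 decimals. Gpx4 (-0.03) turned to 0.04 without control replicate 2 and to 0.01 without sickle replicate 2, Gsr (-0.02) to 0.03 without sickle replicate 1 and Sod2 (-0.09) to 0.02 without sickle replicate 3. Sod3 (0.09) turned to -0.01 without control replicate 1, to -0.17 without sickle replicate 3 and to -0.07 with array weights. Glrx5 (-0.01) turned to 0.02 without control replicate 1, to 0.08 without sickle replicate 3 and to 0.05 with array weights. With arrays left out in turn their ranges were -0.08 to 0.04 (Gpx4), -0.10 to 0.03 (Gsr), -0.14 to 0.02 (Sod2), -0.17 to 0.26 (Sod3) and -0.05 to 0.08 (Glrx5). The cause was not tested. Gpx1 ran from 0.79 to 1.15 with arrays left out (limma adjusted p from 0.0791 to 0.633) and from 0.86 to 1.01 otherwise (0.0919 to 0.522). Gclm ran from 0.62 to 0.89 and from 0.68 to 0.74 (adjusted p from 0.214 to 0.772 over all), and Sod1 from -0.24 to -0.17 and from -0.22 to -0.18. The files give no signal over background, so how far dim genes such as Gpx2 are limited by it is unknown.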

Other observations

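Besides Glrx, the glutaredoxin genes Glrx2, of mitochondria, and Glrx3, of the cytosol, were lower in all 3 sickle arrays than in any control array, by small amounts. Glrx2 had 6.54, 6.71 and 6.71 in control and 6.54, 6.52 and 6.47 in sickle (-0.14 ± 0.09, SE, limma adjusted p = 0.685), where control and sickle replicate 1 are equal to 2 decimals. Glrx3 had 7.09, 7.09 and 7.10 in control and 7.05, 6.99 and 7.06 in sickle (-0.06 ± 0.08). Glrx5, the mitochondrial glutaredoxin of iron-sulfur cluster assembly, overlapped between the groups, with 9.56, 9.52 and 9.46 in control and 9.60, 9.59 and 9.34 in sickle (-0.01 ± 0.11). With Glrx, Ggct and Ggt7 (-0.10 ± 0.09), Glrx2 and Glrx3 made 5 of the 15 further supply and recycling genes without overlap and lower, against 8.36% of all genes, and 0 of them passed the adjustment in limma.

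The mitochondrial peroxiredoxin Prdx3 (-0.15 ± 0.12), the cytosolic thioredoxin Txn1 (-0.16 ± 0.10) and its reductase Txnrd1 (-0.12 ± 0.09) were also below control in 3 of 3 sickle arrays without overlap, with limma adjusted p from 0.68 to 0.717. They are 3 of the 12 further peroxiredoxin and thioredoxin genes, 7 of which were above control, and 8.36% of all genes were lower without overlap. The separation of Prdx3 was under 0.01, with 11.22 in both control and sickle replicate 2, and its difference was -0.04 without sickle replicate 3. That of Txn1 was -0.08 without sickle replicate 2. Cybb, the catalytic subunit of the phagocyte NADPH oxidase, had 7.19, 7.37 and 7.20 in control and 7.69, 7.43 and 9.11 in sickle (0.82 ± 0.39, limma adjusted p = 0.599). Most of that difference lay in sickle replicate 3, the array with the high macrophage markers, and without it the difference was 0.30.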
